A study of Mus musculus with 6 samples.

Results

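Ionotropic glutamate receptors are cation channels opened by the transmitter glutamate, and 10 of their genes were followed here: the AMPA receptor genes Gria1, Gria2, Gria3 and Gria4, the kainate receptor genes Grik1, Grik3 and Grik5, and the NMDA receptor genes Grin1, Grin2d and Grin3a. A deposited isoform belonged to a gene when its gene name, without the suffix that numbers its isoforms, was 1 of these 10. The rule gave 10 of 17022 gene names and 56 of 60744 isoforms, 33 of them from the AMPA, 10 from the kainate and 13 from the NMDA receptor genes. It used names only and no measured value.

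RNA was sequenced from neurons cut by laser out of the dorsal root ganglia (DRG), the clusters of sensory nerve cell bodies beside the spinal cord, of C57Bl/6 male mice labelled adult and 4 to 6 weeks old. The crush group, 3 libraries, came from ganglia at lumbar levels 3, 4 and 5 on the operated side, 7 days after the sciatic nerve had been crushed for 10 seconds. The sham group, 3 libraries, came from the same levels and day after the nerve had been only exposed for 10 seconds, and no other treatment or allele is named for either group. The heading of the deposited table calls the libraries biological replicates, but the labels do not say that they came from separate animals or how many animals or neurons each holds, and p-values therefore stand for the spread between these samples alone. The labels do not tell which of the neurons projected into the injured nerve.

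Each receptor is built from 4 subunits. AMPA receptors carry most fast excitatory transmission in the central nervous system, NMDA receptors need both glutamate and glycine or D-serine and let calcium in, and kainate receptors act on both sides of the synapse. Sensory neurons release glutamate in the spinal cord, and they also make receptor subunits of all 3 classes themselves. In small sensory neurons the kainate receptor is built largely around GluK1, the product of Grik1.

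Values are the authors' FPKM, in which fragments are divided by transcript length and library size, so that levels of different genes can be set side by side. Where 3 values are given for a group, they stand in the order of its libraries 1, 2 and 3. The depth of the libraries is unknown. For a receptor isoform of at least 1 FPKM, the deposited interval reached 28.3% to 30.0% of the estimate to either side (median in each library). Of the 10 receptor genes, 8 to 10 reached 1 FPKM in a library, as did 12087 to 12347 genes in all. Across the 12289 genes tested, sham 2 stood apart: it correlated with the other sham libraries at r = 0.978 and 0.981, against 0.996 between sham 1 and sham 3 and 0.993 to 0.996 among the crush libraries (genes are not independent replicates). Of the 10 receptor genes, 7 had their lowest sham value in sham 2, and 8 had their lowest crush value in crush 3, so results are also given without sham 2 where it decides them. All 7 general sensory neuron markers were measured (Tubb3, a neuronal tubulin, reached 1677 to 2447 FPKM), but so were all 10 markers of satellite and Schwann glia, at a summed 2942 to 4098 FPKM in sham and 3020 to 3310 FPKM in crush libraries.

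Several of these genes are spliced into forms that gate differently, and the exons that tell the forms apart are printed here because the isoform values below turn on them. Each AMPA receptor gene holds a pair of alternative exons of 115 bases, flip and flop, 1 of which is used; they code for a stretch beside the glutamate-binding site that sets how fast the channel desensitises. The pair is shown for Gria4, the most abundant AMPA gene here, and for Gria1, the most skewed of the well-assigned ones, from GENCODE M21 transcripts (GRCm38), 5′ to 3′ in the direction of the gene, with the bases that differ between flip and flop of the same gene in capitals. The exons differ at 31 of 115 bases in Gria4 and at 36 in Gria1.
Gria4 flip, chr9:4427030-4427144, minus strand: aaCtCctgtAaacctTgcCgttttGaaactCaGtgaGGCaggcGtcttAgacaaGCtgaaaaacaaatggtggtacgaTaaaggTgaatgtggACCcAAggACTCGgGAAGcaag
Gria4 flop, chr9:4432773-4432887, minus strand: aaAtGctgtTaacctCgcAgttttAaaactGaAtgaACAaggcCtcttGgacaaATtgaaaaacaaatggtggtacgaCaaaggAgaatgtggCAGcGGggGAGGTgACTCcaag
Gria1 flip, chr11:57310608-57310722, plus strand: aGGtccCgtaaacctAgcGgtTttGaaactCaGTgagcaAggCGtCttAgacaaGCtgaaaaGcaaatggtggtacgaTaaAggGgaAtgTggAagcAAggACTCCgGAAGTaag
Gria1 flop, chr11:57309769-57309883, plus strand: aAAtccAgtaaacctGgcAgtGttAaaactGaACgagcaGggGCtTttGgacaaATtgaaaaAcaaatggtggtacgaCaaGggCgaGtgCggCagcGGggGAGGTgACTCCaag

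Grin1 has an exon of 63 bases (21 codons) that codes for the N1 cassette, an insert in the outer domain known to make the receptor less sensitive to protons, and an exon of 111 bases (37 codons) that codes for the C1 cassette of the inner tail. Grik1 has an exon of 45 bases (15 codons) in the outer domain, which marks the GluK1-1 form. These exons are in capitals below, between 12 bases of the neighbouring exons, from the same source.
Grin1 exon of 63 bases, chr2:25311343-25311405, minus strand: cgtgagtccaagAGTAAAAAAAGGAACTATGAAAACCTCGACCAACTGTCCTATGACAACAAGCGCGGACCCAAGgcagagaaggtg
Grin1 exon of 111 bases, chr2:25294438-25294548, minus strand: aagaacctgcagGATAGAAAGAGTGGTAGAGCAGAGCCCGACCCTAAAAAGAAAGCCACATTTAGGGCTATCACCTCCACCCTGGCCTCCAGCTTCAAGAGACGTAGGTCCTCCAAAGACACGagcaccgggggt
Grik1 exon of 45 bases, chr16:87955289-87955333, minus strand: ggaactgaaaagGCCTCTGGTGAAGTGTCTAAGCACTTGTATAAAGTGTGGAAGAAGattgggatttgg

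Transcripts of the 10 genes were very unequal in level. Grik1, Grin1 and Gria4 together held 81.0% to 87.3% of the summed FPKM of the 10 genes in each library, with Grik1 alone at 47.1% to 53.6%. In order of the mean over all 6 libraries, Grik1 (66.1 FPKM) was followed by Grin1 (26.3), Gria4 (18.0), Grik5 (5.88), Gria3 (5.18), Gria2 (4.63), Gria1 (3.23), Grin3a (2.09), Grik3 (1.09) and Grin2d (0.892). Grik1, Grin1 and Gria4 did not overlap with the gene that follows each of them in either group. In the sham libraries Grik5 and Gria3, Gria3 and Gria2, Gria1 and Grin3a, Grin3a and Grik3, and Grik3 and Grin2d overlapped. In the crush libraries only Grik3 and Grin2d did. This order counts partial isoforms. Isoforms with at least 80% of the exons of the longest coding GENCODE transcript held 33.9% of Gria4 and 19.6% of Gria3 FPKM. They held 100% of Grik5 and Gria1 FPKM. Over such isoforms alone, Gria4 (mean 6.11 FPKM) was close to Grik5 (5.88). Gria3 (1.01) was then below Gria2 (3.33) and Gria1 (3.23).

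**Figure D1:**
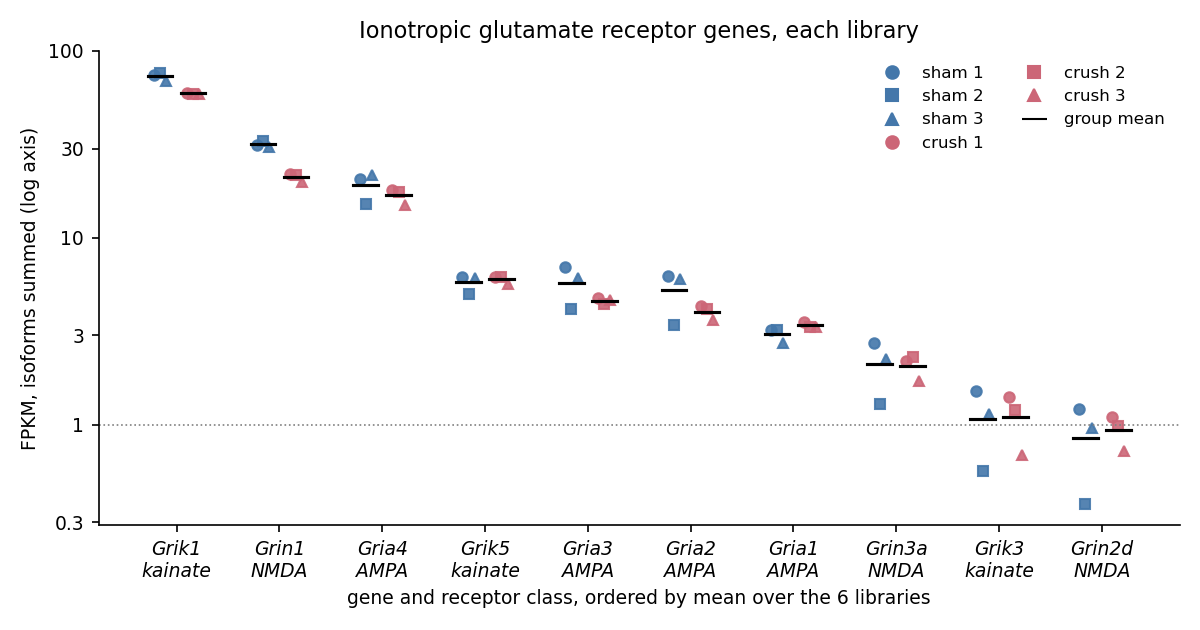
FPKM of each receptor gene (isoforms summed, log axis) in the 3 sham (blue) and 3 crush (red) libraries, with group means as black bars and a dotted line at 1 FPKM. The groups are apart for Grik1, Grin1 and, narrowly, Gria1, and sham 2 is the lowest sham library for 7 of the 10 genes.

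Genes with a mean of at least 1 FPKM were compared between crush and sham with limma on log2(FPKM + 1), with Benjamini-Hochberg adjustment over all 12289 genes and a threshold of 0.05. Of the 10 receptor genes 9 reached that level, 1 of the 9 (Grin1) fell, and none rose. The background was 3.78% of all genes tested, 1.39% lower and 2.38% higher. An unadjusted p under 0.05 was reached by 2 of the 9 receptor genes (Grin1 and Grik1), against 17.6% of all genes. The groups did not overlap for 3 of the 9 (Grin1, Grik1 and Gria1), against 26.3% of all genes, and 2 of these were lower after crush, against 14.1% of all genes. Log2 changes were negative for 5 and positive for 4 of the 9, with a median of -0.16, and the median of all genes tested was -0.02.

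Among the NMDA receptor genes, Grin1 (mm9, chr2:25132520-25174850, minus strand) encodes GluN1, the glycine-binding subunit that every NMDA receptor needs. Its FPKM was 31.3, 32.8 and 30.5 in sham and 22.0, 21.5 and 19.8 in crush libraries. All crush libraries were below all sham libraries, with a wide gap and little spread within a group. The group mean, given here and below with its SD over 3 libraries, fell from 31.5 ± 1.14 in sham to 21.1 ± 1.18 FPKM in crush libraries, 33.1% lower (log2 change -0.56, SE 0.068, limma adjusted p = 0.0123). In bulk RNA such a fall cannot be told apart from fewer cells of a type that makes the transcript or less of it per cell.

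The size of the Grin1 difference was much the same under every alternative that kept the gene, from -0.59 to -0.49, but its call was not: the adjusted p was 0.00533 without sham 2 and 0.0517 to 0.0686 without any of the other 5 libraries. Some markers of large myelinated sensory neurons moved with it. Of that list 2 of the 4 tested fell. Nefh, a neurofilament subunit, fell by 0.64 on the log2 scale (limma adjusted p = 0.0147). Pvalb, the calcium-binding protein parvalbumin, fell by 1.48 (adjusted p = 0.0379). Ntrk3 (-0.28, adjusted p = 0.0932) and Ntrk2 (-0.04, adjusted p = 0.899) did not pass. The summed level of the list was 681 to 746 FPKM in sham and 389 to 471 FPKM in crush libraries, with none of its 5 genes at 0. Macrophage markers moved the other way: 4 of 5 rose, from a summed 41.9 to 50.0 FPKM in sham to 85.1 to 97.3 FPKM in crush libraries. None of the 7 general neuron markers passed the test, nor did any of the 3 peptidergic and 3 non-peptidergic nociceptor markers. Changes were negative for 6 of the 7, 3 of the 3 and 2 of the 3. The part of any of these lists in the Grin1 result was not tested.

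Grin1 reads came almost wholly from 1 isoform. Isoform TCONS_00072521, of 20 exons and 3950 bases, with the same intron lengths as a GENCODE coding transcript, held 92.5% of Grin1 FPKM, at 28.6, 30.6 and 28.2 in sham and 20.1, 19.7 and 18.7 in crush libraries. It holds the exon of 63 bases printed above and lacks the exon of 111 bases, which was in none of the 5 Grin1 isoforms. Isoforms with the exon of 63 bases held 99.5% to 99.9% of Grin1 FPKM in every library. The only isoform without it, TCONS_00074468, has 18059 bases, of which 84.4% are shared with the Anapc2 transcript described below. It was at 0.0430 to 0.148 FPKM. With no other isoform lacking the exon in the assembly, this share cannot show whether use of the exon changed. Tested as an isoform among 24485, the main form differed by -0.55 with limma adjusted p = 0.107. In the authors' deposited table, which tests pooled group estimates, it went from 28.9 to 20.8 FPKM with a log2 change of -0.48 and q = 1.21e-05.

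The Grin1 values share part of their sequence with another gene. An assembled transcript of Anapc2, a subunit of the anaphase-promoting complex, runs on the opposite strand (mm9, chr2:25125992-25156504) and its last exon of 15734 bases reaches into Grin1. It covers bases in 11 of the 20 exons of the main Grin1 isoform, 2246 of 3950 bases or 56.9%, and all 5 Grin1 isoforms share bases with it, so no Grin1 value without shared bases could be made. No source used here says that the libraries kept strand, so reads from the shared stretch cannot be assigned by it. The Anapc2 transcript was listed at 9.26, 10.1 and 9.29 FPKM in sham and at 8.68, 8.80 and 8.93 FPKM in crush libraries (log2 change -0.11, limma adjusted p = 0.469). Its crush values were all below its sham values, by less in FPKM than those of Grin1, and how the authors' estimates divided the shared reads was not tested.

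**Figure D2:**
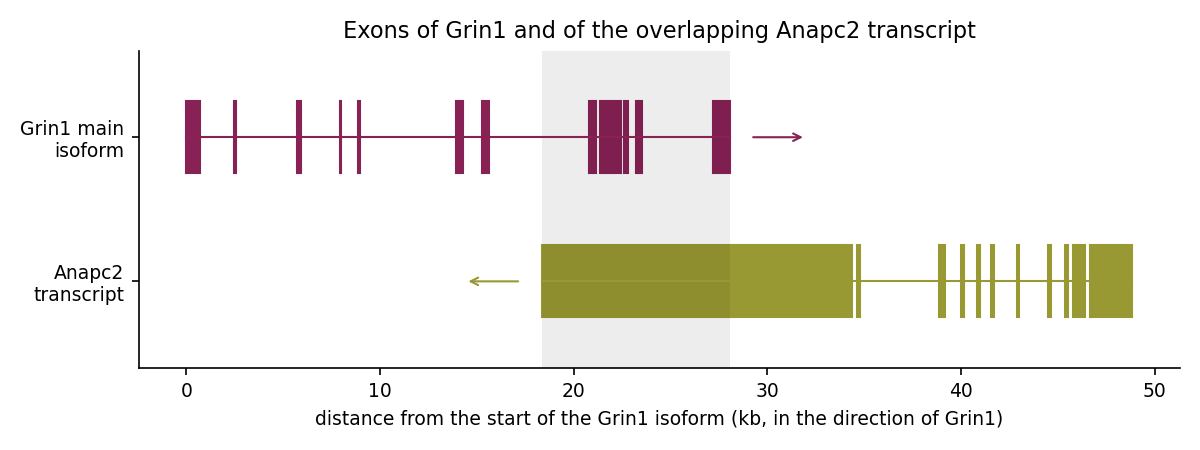
Exons (boxes) of the main Grin1 isoform and of the assembled Anapc2 transcript on the opposite strand, as distance in kb from the Grin1 start, with arrows for the direction of each gene. The shaded stretch is where the last Anapc2 exon covers the 3′ part of Grin1, with 11 of its 20 exons.

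Grin2d and Grin3a, the other NMDA receptor genes, were low in all libraries. Grin2d (mm9, chr7:53089013-53121735, minus strand) encodes GluN2D, a glutamate-binding subunit that gives receptors with very slow closing, and was at 1.22, 0.377 and 0.965 FPKM in sham and at 1.09, 0.981 and 0.721 FPKM in crush libraries. Its groups overlapped, its mean was under 1 FPKM, so it was not tested, and its 5 isoforms share 14.8% to 89.7% of their bases with AK133391 on the opposite strand. Grin3a (chr4:49674266-49858959, minus strand) encodes GluN3A, a glycine-binding subunit that lowers calcium entry, and was at 2.75, 1.3 and 2.26 FPKM in sham and at 2.20, 2.30 and 1.70 FPKM in crush libraries. The sham libraries spanned the crush ones (log2 change 0.01, SE 0.19, limma adjusted p = 0.986), and without sham 2 the change was -0.19 (adjusted p = 0.353). Among the other glutamate-binding NMDA subunits Grin2c was at 0.0659 to 0.255 FPKM, and Grin2a and Grin2b were not analysed here. Summed without the other NMDA receptor genes, Grin1, Grin2d and Grin3a went from 34.5 ± 0.775 to 24.1 ± 1.67 FPKM, 30.1% lower. Grin1 made up 86.8% to 95.1% of this partial sum in every library.

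Among the kainate receptor genes, Grik1 (mm9, chr16:87896122-88290705, minus strand) was the most abundant of all 10. Its FPKM was 74.1, 76.1 and 69.0 in sham and 59.7, 58.7 and 59.0 in crush libraries. All crush libraries were below all sham libraries, and the crush libraries lay within 1 FPKM of each other. The mean was 73.0 ± 3.65 FPKM in sham and 59.1 ± 0.503 FPKM in crush libraries, 19.0% lower, but the difference did not pass the threshold (log2 change -0.30, SE 0.065, limma adjusted p = 0.0603). It passed without sham 2 (-0.27, adjusted p = 0.0272) and with libraries weighted by their agreement (adjusted p = 0.0102), settings that called 9.55% and 11.6% of all genes, and had adjusted p from 0.133 to 0.228 without any 1 of the other 5 libraries.

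Grik1 was estimated in nearly equal amounts with and without the exon of 45 bases. The form with it (TCONS_00050673, 17 exons, 49.2% of Grik1 FPKM) was at 34.4, 42.1 and 33.0 FPKM in sham and at 29.0, 27.7 and 28.8 FPKM in crush libraries. The form without it (TCONS_00048685, 16 exons, 46.6%) was at 36.1, 31.6 and 33.4 FPKM in sham and at 27.8, 28.0 and 27.9 FPKM in crush libraries. For both forms every crush library was below every sham library, at log2 changes of -0.34 and -0.26, and neither passed the isoform test (limma adjusted p = 0.428 and 0.396). The share of Grik1 FPKM in isoforms with the exon was 50.6% ± 4.38 in sham and 48.8% ± 1.32 in crush libraries, overlapping, with the highest value, 55.6%, in sham 2. The main forms with and without the exon also differ at their ends. Their first exons have 23 and 849 bases and their last exons 475 and 347 bases. How far the unlike ends shape this share was not tested. A further exon of 87 bases, which lengthens the inner tail, was in isoforms holding 2.90% to 4.89% of Grik1 FPKM. The authors' deposited table gives no test for Grik1: all 5 of its isoforms carry the status FAIL there.

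Grik5 and Grik3 did not differ between the groups beyond their spread. Grik5 (mm9, chr7:25794868-25859340, minus strand) encodes GluK5, a subunit of high affinity for glutamate that forms channels only together with GluK1, GluK2 or GluK3, and was at 6.19, 4.99 and 6.11 FPKM in sham and at 6.14, 6.17 and 5.66 FPKM in crush libraries (log2 change 0.05, SE 0.093, limma adjusted p = 0.831; -0.03 without sham 2). Apart from sham 2, the libraries of both groups overlapped. Grik3 (chr4:125167990-125391418, plus strand) encodes GluK3, a subunit of low affinity for glutamate, and was at 1.52, 0.564 and 1.14 FPKM in sham and at 1.41, 1.2 and 0.692 FPKM in crush libraries (log2 change 0.03, SE 0.21, adjusted p = 0.962; -0.16 without sham 2). Its lowest values were in sham 2 and crush 3. Grik1, Grik3 and Grik5 together summed to 79.9 ± 3.15 FPKM in sham and 66.2 ± 0.956 FPKM in crush libraries, 17.1% lower. Grik1 made up 88.8% to 93.2% of this sum. The kainate receptor genes Grik2 (means of 2.90 FPKM in sham and 2.82 FPKM in crush libraries) and Grik4 (10.6 and 9.20 FPKM) are not in it.

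Among the AMPA receptor genes, Gria4 (mm9, chr9:4417874-4797047, minus strand), which encodes GluA4, the subunit known for fast gating, led with 55.7% to 59.6% of the class in every library, partial isoforms included. Its FPKM was 20.7, 15.1 and 21.7 in sham and 18.1, 17.6 and 14.9 in crush libraries. The groups overlapped through sham 2, and the mean was 19.2 ± 3.56 in sham and 16.9 ± 1.69 FPKM in crush libraries (log2 change -0.16, SE 0.15, limma adjusted p = 0.640; -0.32 with adjusted p = 0.0692 without sham 2). It passed only with sham 2 and crush 3 both left out (-0.24, adjusted p = 0.0320, background 13.1% of all genes), a choice made after seeing the data.

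Gria2 and Gria3 had the same shape across libraries. Gria2 (mm9, chr3:80485365-80607134, minus strand) encodes GluA2, whose edited form keeps calcium out of the channel, and was at 6.22, 3.41 and 6.05 FPKM in sham and at 4.30, 4.18 and 3.61 FPKM in crush libraries (log2 change -0.28, SE 0.19, limma adjusted p = 0.535). Gria3 (chrX:38754037-39031780, plus strand), which encodes GluA3, was at 6.99, 4.17 and 6.11 FPKM in sham and at 4.76, 4.43 and 4.64 FPKM in crush libraries (-0.24, SE 0.16, adjusted p = 0.490). For both genes sham 1 and sham 3 were above all crush libraries and sham 2 was below all of them. Without sham 2 both fell and passed the test (Gria2 by 0.51 on the log2 scale with adjusted p = 0.0130, Gria3 by 0.43 with adjusted p = 0.0182), where the background was 9.55% of all genes. When only isoforms with at least 80% of the exons of the longest coding GENCODE transcript were summed, the Gria3 change was -0.08 (adjusted p = 0.882).

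Gria1 (mm9, chr11:56804330-57143897, plus strand), which encodes GluA1, the subunit best known from activity-dependent trafficking, was the only AMPA gene with separate groups. It was at 3.22, 3.22 and 2.73 FPKM in sham and at 3.53, 3.33 and 3.33 FPKM in crush libraries. Every crush library was above every sham library, but the gap to sham 1 and sham 2 was small (3.06 ± 0.282 against 3.40 ± 0.117 FPKM, log2 change 0.12, SE 0.080, limma adjusted p = 0.514). Summed, the AMPA class was at 37.1, 25.9 and 36.6 FPKM in sham and at 30.7, 29.6 and 26.5 FPKM in crush libraries. These groups overlapped, as sham 2 was the lowest of all 6 libraries.

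**Figure D3:**
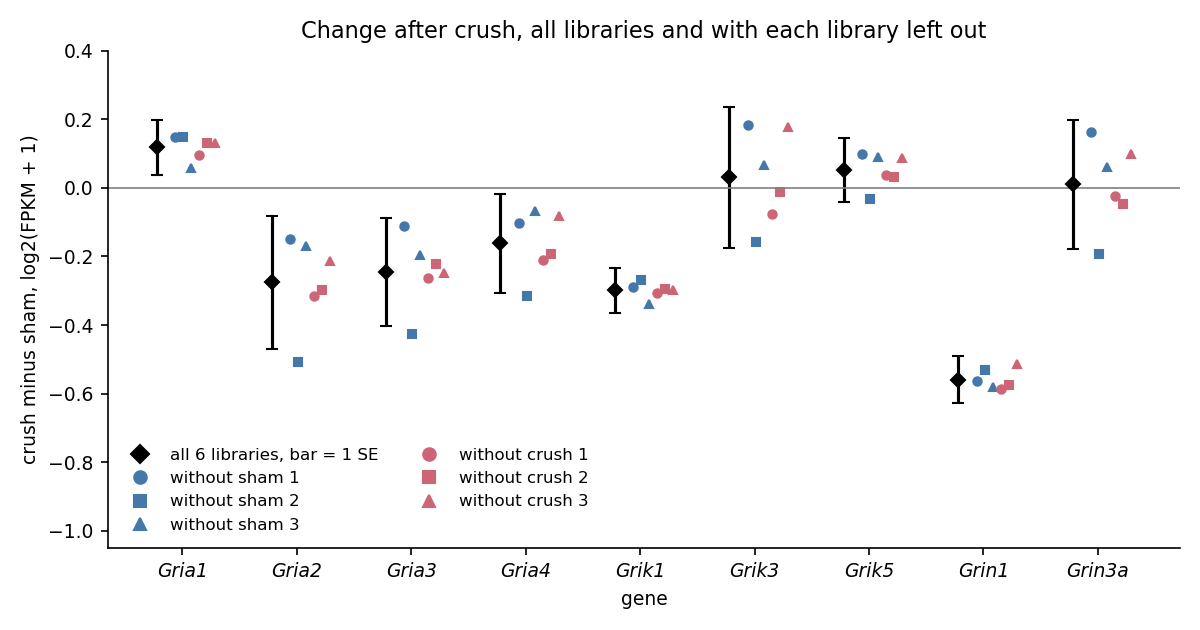
Change of each tested gene, crush minus sham, as log2(FPKM + 1) with all 6 libraries (black, bar of 1 SE) and with each library left out in turn (blue, a sham library; red, a crush library). Grin1 stays between -0.59 and -0.51 and Grik1 between -0.34 and -0.27, whereas leaving out sham 2 moves Gria2, Gria3 and Gria4 down and turns the sign of Grik3, Grik5 and Grin3a.

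The AMPA receptor genes differed in their use of the flip and flop exons printed above. Over isoforms that could be assigned by intron lengths, flop made up 80.1% to 90.4% of Gria1, 44.3% to 56.2% of Gria2, 4.38% to 25.2% of Gria3 and 42.6% to 57.2% of Gria4 in the 6 libraries. The assigned isoforms held 100% of Gria1 and 85.0% of Gria2 FPKM, but 32.4% of Gria3 and 33.0% of Gria4 FPKM, so the last pair of shares rests on a minority of the estimate. Over near full length isoforms alone, the Gria2 share was 62.9% to 70.3%, and that of Gria3 was spread from 4.38% to 99.6%. Gria1 was therefore mostly flop in every library, and the Gria2 and Gria3 shares depended on which isoforms were counted.

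In Gria4 the order of the estimates for the main flop and flip forms was not the same in the sham and crush libraries. The flop form was at 3.98, 2.17 and 4.01 FPKM in sham and at 2.74, 2.67 and 2.16 FPKM in crush libraries. The flip form was at 3.09, 2.09 and 2.57 FPKM in sham and at 3.69, 3.15 and 2.43 FPKM in crush libraries. Between these forms, flop was above flip in every sham library, by little in sham 2, and flip above flop in every crush library. Their deposited intervals overlapped in every library, so no single library settles the order. In sham 3, for example, they were 2.95 to 5.07 FPKM for flop and 1.83 to 3.31 FPKM for flip. Neither form passed the isoform test (limma adjusted p = 0.791 for flop and 0.839 for flip). The flop shares, which count a minor flip isoform too, were 53.1% ± 5.73 in sham and 45.2% ± 2.29 in crush libraries and overlapped. The other main Gria4 isoforms do not hold either exon: a fragment of 2 exons at the 3′ end held 38.9% of Gria4 FPKM (6.66 to 7.60 FPKM) and a reference form of 11 exons held 27.2% (3.68 to 6.95 FPKM).

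**Figure D4:**
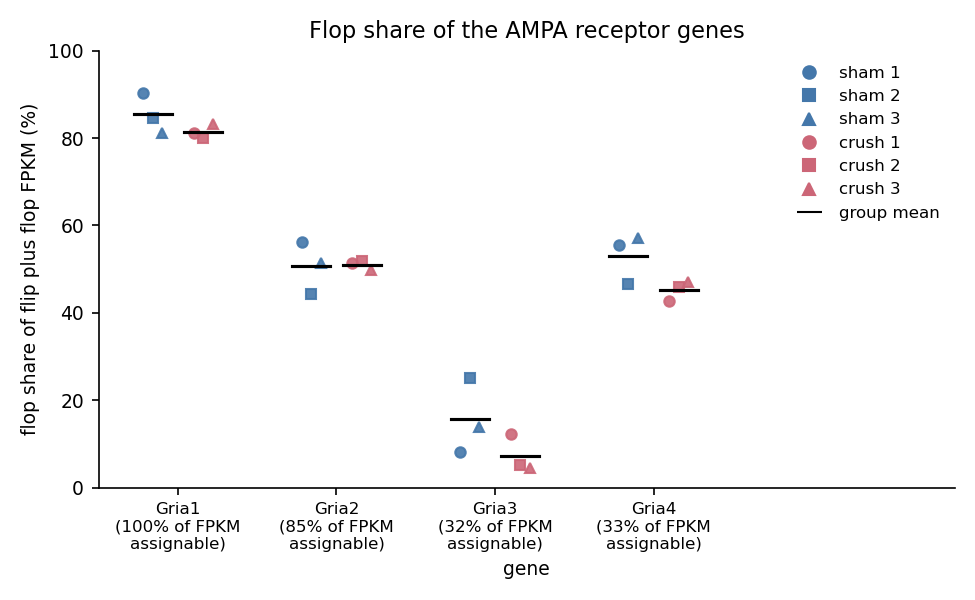
Flop share (percent of flip plus flop FPKM) of the 4 AMPA receptor genes in each library, sham in blue and crush in red, with group means as black bars; the labels give the share of each gene's FPKM that could be assigned. Gria1 lies at 80.1% to 90.4% in all 6 libraries, and Gria4 at 53.1% in the mean of the sham and 45.2% in that of the crush libraries.

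Unequal change among the isoforms of a gene was tested with limma's diffSplice in the 3 receptor genes with at least 2 isoforms of 1 FPKM (Gria4, Grik1 and Grin1). None passed, against a background of 0.445% of 6746 genes called. The unadjusted p from the diffSplice model was 0.307 for Gria4, 0.232 for Grik1 and 0.137 for Grin1, while 5.38% of genes had one under 0.05. With libraries weighted by their agreement Gria4 passed (adjusted p = 0.00713), a setting that called 9.47% of the genes, and without sham 2 its unadjusted p was 0.0180 and its adjusted p 0.337. Of the 56 isoforms, 13 reached a mean of 1 FPKM, none passed the isoform test with all libraries weighted equally, and 3 had an unadjusted p under 0.05 (background 0.0613% of isoforms called and 9.12% at an unadjusted p under 0.05). With the weights 2 of the 13 passed (background 5.53% of isoforms). The 3 were the main Grin1 form and both main Grik1 forms, and they were also the only tested receptor isoforms whose groups did not overlap, against 17% of all isoforms.

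**Figure D5:**
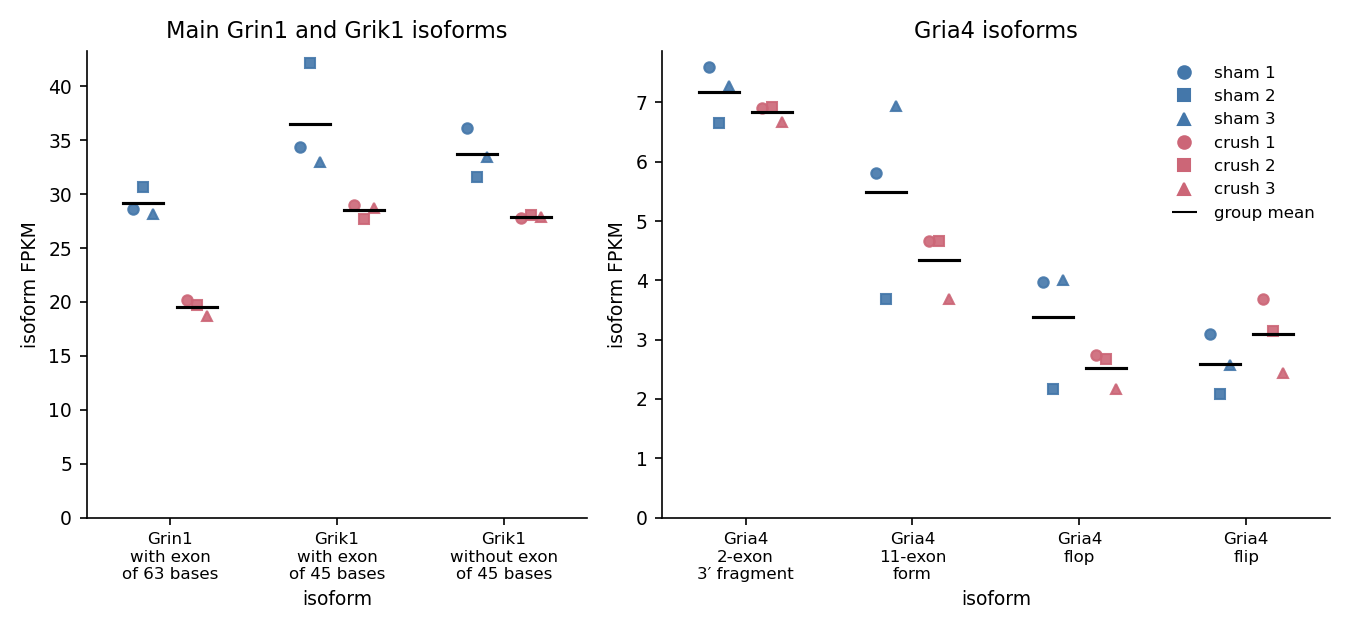
FPKM of the main Grin1 and Grik1 isoforms (left) and of the 4 main Gria4 isoforms (right) in each library, sham in blue and crush in red, with group means as black bars. The Grin1 and both Grik1 forms are lower in every crush than in every sham library, whereas the Gria4 forms overlap.

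The authors' deposited table tested 32 of the 56 isoforms and called 5, against a background of 15.1% of isoforms tested there. The 18 isoforms of Gria1, Gria4, Grik1 and Grin3a carry the status FAIL in it. The 5 called isoforms are the main Grin1 form given above, the main Grik3 form and 3 of Gria2. In the authors' deposited table the main Grik3 form went from 1.24 to 0.681 FPKM (log2 change -0.87, q = 0.000472), but its values in single libraries were 1.36, 0.348 and 1.14 FPKM in sham and 1.38, 1.2 and 0.322 FPKM in crush libraries. These overlap fully, with means of 0.946 ± 0.530 and 0.965 ± 0.564 FPKM. The most abundant of the 3 Gria2 isoforms, a flop form with 27.0% of Gria2 FPKM, went from 2.15 to 1.48 FPKM in the authors' deposited table (log2 change -0.54, q = 0.0335). Its library values, 1.53, 0.852 and 1.65 FPKM in sham and 1.24, 1.14 and 1.09 FPKM in crush libraries, overlapped through sham 2. The other 2 Gria2 isoforms, named after their values were seen, were TCONS_00080912 (0.947 to 0.388 FPKM, q = 0.000496) and TCONS_00080907 (0.264 to 0.0705 FPKM, q = 0.0318) in the authors' deposited table. In single libraries TCONS_00080912 was at 0.457, 0.436 and 0.720 FPKM in sham and 0, 0.372 and 0.418 FPKM in crush libraries. TCONS_00080907 was at 0, 0 and 0.00018 FPKM in sham and at 0 in every crush library, so its pooled fall had no counterpart there.

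Genes that work with the receptors were taken from lists of 91 genes, of which 63 were tested. Of these 2 rose and none fell, 3.17% against the background of 3.78% of all genes. The kainate receptor auxiliary subunit Neto1, a transmembrane protein with CUB domains that also binds NMDA receptors, rose in each crush library: it was at 2.34, 1.54 and 1.91 FPKM in sham and at 4.69, 4.63 and 5.44 FPKM in crush libraries. This was a ratio of means of 2.55 (log2 change 1.02, SE 0.12, limma adjusted p = 0.00994), and the other such subunit, Neto2, did not pass (0.23, adjusted p = 0.531). The Neto1 change was 0.66 with adjusted p = 0.135 when only isoforms with a reference identifier were summed, and its adjusted p was 0.0507 to 0.0656 without sham 3, crush 1, crush 2 or crush 3. Slc1a4, a transporter of neutral amino acids, had means of 31.2 ± 1.05 in sham and 43.1 ± 2.15 FPKM in crush libraries, a rise of 0.45 on the log2 scale (adjusted p = 0.0190), and was at an adjusted p of 0.0653 to 0.101 when any library other than sham 2 was left out and of 0.166 when only isoforms with a reference identifier were summed.

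In the remaining lists no gene passed with all 6 libraries weighted equally, and the gene of smallest adjusted p is named. Of the other ionotropic receptor genes 3 were tested, with a median log2 change of -0.03, and Grik4, which encodes the high-affinity subunit GluK4, was at 10.6 ± 1.02 FPKM in sham and 9.20 ± 0.378 FPKM in crush libraries (adjusted p = 0.314). Of 13 AMPA receptor auxiliary and biogenesis genes, 10 had a negative change (median -0.07). Cacng2, which encodes stargazin, an auxiliary subunit that carries AMPA receptors to the membrane, was closest to the threshold there, at 6.36, 5.29 and 5.55 FPKM in sham and 3.88, 3.33 and 4.21 FPKM in crush libraries (log2 change -0.49, adjusted p = 0.0518). Its crush libraries were all below its sham libraries. Cacng2 passed under 4 of 18 alternatives (limma adjusted p from 0.00682 to 0.0420). Single alternatives called up to 13.1% of all genes.

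Of 19 scaffold and trafficking genes 6 had an unadjusted p under 0.05, against 17.6% of all genes, and the median change was -0.03, with Grasp, a scaffold protein of glutamate receptors, at 2.60 ± 0.218 FPKM in sham and 1.78 ± 0.170 FPKM in crush libraries (log2 change -0.37, adjusted p = 0.0712). Of 3 metabotropic receptor genes Grm4, a receptor that acts through G proteins, was at 9.14 ± 1.03 and 6.99 ± 0.266 FPKM (-0.34, adjusted p = 0.0997). Of 17 genes of glutamate supply and uptake 8 had an unadjusted p under 0.05, against the same 17.6%, and Slc1a4, above, was the only one called. For the NMDA receptor co-agonists (4 tested), the glycine transporter gene Slc6a9 was at 1.12 ± 0.0358 and 1.42 ± 0.0740 FPKM (0.19, adjusted p = 0.239). Of 2 editing enzyme genes, Adarb1, whose product edits the Gria2 transcript at the site that blocks calcium, was at 8.83 ± 0.837 and 11.3 ± 0.582 FPKM (0.33, adjusted p = 0.0932).

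For the leading gene of each class, the 3 tested genes whose log2(FPKM + 1) followed it most closely over the 6 libraries were listed by Pearson's r, as a description. For Grin1 these were Pnpla6 (r = 0.998), Dtnb (0.996) and Aifm3 (0.996), and of them Aifm3, a mitochondrial oxidoreductase gene, fell past the threshold as well, by 0.71 on the log2 scale (limma adjusted p = 0.00717). For Grik1 they included Iqcb1 (0.999) and the kinase gene Limk1 (0.997), and of these Limk1 fell (by 0.34, adjusted p = 0.0434). For Gria4 they were Chd6 (0.998), Ulk1 (0.996) and St3gal2 (0.995), none of which passed. Over 6 libraries in 2 groups such values are common: 214 genes had r over 0.95 with Grin1, 187 with Grik1 and 166 with Gria4, and the libraries, their groups and the standing apart of sham 2 are shared by all of them.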

How the data were processed

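Polyadenylated RNA (500 ng for each library) of the 6 libraries was barcoded, mixed and run on 3 lanes, per the labels' protocols. FPKM per isoform and library, with intervals and status, were used as deposited by the authors, as were their group comparison with log2 fold changes, p-values and q-values, and their exon file. TopHat 1.3.2, Cufflinks 1.1.0, Cuffdiff 1.2.1 and build mm9 are named in the submitters' processing notes. FPKM keep no read counts, so the precision of single values rests on the deposited intervals.

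FPKM were summed over the isoforms of a gene name. Genes averaging at least 1 FPKM over the libraries, and isoforms likewise, entered limma 3.58.1 (R 4.3.3) as log2(FPKM + 1) (moderated variance with a mean-variance trend, 2-sided, Benjamini-Hochberg over the whole table, threshold 0.05), without a replicate block. The log2(FPKM + 1) scale understates the change of low genes. Isoform differences were tested with diffSplice, which on simulated data called more unchanged genes than its threshold allows. On such data the gene test kept near its threshold. The simulated noise was independent between genes, with no library standing apart as sham 2 does, so it does not show the error rate of either test here. Isoform structures were compared with GENCODE M21 by exon and intron lengths only (tolerance 5 bases), since its build, GRCm38, is not that of the files. Python 3.11.15 with pandas 2.3.3 and matplotlib 3.10.9 served for tables and plots.

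Named are all 10 receptor genes, their isoforms with at least 10% of the gene's FPKM, list genes that passed or, where none did, the one of smallest adjusted p, and the 3 genes most like the leading gene of each class. One of these genes is not reported here. The members and lists were chosen with earlier results of these data known. Alternatives were other pseudocounts, filters, scalings, weights, isoform sets and each library left out.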

Additional observations from a re-analysis of the deposited data

How the results depend on the processing

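The number of receptor genes called, 1 with all libraries weighted equally, was 4 with sample weights (Gria2, Gria3, Grik1 and Grin1), 5 without sham 2 and crush 3 together (also Gria4, chosen after seeing the data), 0 when only isoforms without shared exon bases were summed, which leaves Grin1 and Grin2d without isoforms, and 0 to 4 with each library left out in turn, 4 of them without sham 2. With the replicate number as a block it was 0 (Grin1 at adjusted p = 0.0723) and the number of all genes called went from 464 to 50. The labels do not say whether equal numbers pair the samples. Same-numbered libraries deviated from their group means with correlations of 0.372, -0.309 and -0.486, and not every library correlated best with its own number. With 3 libraries per group and sham 2 standing apart (0.590 with crush 3), these values cannot decide whether the numbers mark a pairing. With the block Neto1 and Slc1a4 were no longer called (adjusted p = 0.0582 and 0.110), and no other call of a receptor gene or named list gene changed. Receptor isoforms called were 2 with sample weights (the main Grin1 form and the Grik1 form without the exon of 45 bases, where 5.53% of all isoforms were called) and 0 otherwise, and genes called for isoform differences 1 with sample weights (Gria4, where 9.47% of all genes were called) and 0 otherwise. The small changes of 3 genes changed sign. Grik3 was at -0.011 with quantile normalization, -0.058 with sample weights, -0.010 without sham 2 and crush 3, and -0.16 to 0.18 with each library left out. Grik5 was at -2.44e-05 with sample weights and -0.033 to 0.10 with each library left out. Grin3a was at -0.030 with quantile normalization, -0.13 with sample weights, -0.10 without sham 2 and crush 3, and -0.19 to 0.16 with each library left out. The cause of these differences was not tested. The Grin1 change was between -0.59 and -0.49 under the 18 alternatives that gave one. Precision limits the low genes: the SE of the log2 change was 0.21 for Grik3 and 0.19 for Grin3a, against 0.068 for Grin1, and Grin2d was too low to test.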
